A study of Gallus gallus with 89 samples.

Results

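The 7 genes described here encode proteins of the cardiac sarcomere and were followed through single cells of a tissue that is not heart, the chick amniogenic somatopleure. They are TNNT2, TNNC1, TNNI1, ACTC1, MYL2, MYL4 and ACTN2, taken by name as 7 of the 13823 gene rows in the deposited count table, and all 7 had a row. They were chosen by their read counts in these same cells, in which some of them were known to be detected, so their levels here are a description. The amniogenic somatopleure is the sheet of ectoderm and lateral plate mesoderm that folds over the embryo to make the amnion.

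All 89 cells came from a single pool of grafts that held both layers, cut from more than 15 wild-type, untreated chick embryos at embryonic day 1.5, stage 10. The pooled tissue is 1 sample with no replicate and no heart or other tissue beside it, so no p-value or standard error was computed and each SD is a spread over cells. Cells were dissociated with trypsin, captured on the Fluidigm C1 microfluidic system for small cells and sequenced as full-length cDNA. Values are reads per 1000000 reads of all gene rows (CPM), and a gene is called detected at 10 CPM or more.

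The sarcomere is the repeating contractile unit of heart and skeletal muscle, in which myosin of the thick filaments pulls on actin of the thin filaments. The troponin complex sits on the thin filament and switches contraction on when calcium rises, the myosin light chains steady and tune the myosin head, and alpha-actinin ties thin filaments together at the Z-disc. At this age the chick heart is a newly formed tube, while the amnion has not yet closed over the embryo. The mature chick amnion holds contractile smooth muscle, whose thin filaments carry no troponin.

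Cells were sorted into states by 3 epithelial ectoderm genes, CDH1 (E-cadherin), TFAP2A (an ectoderm transcription factor) and CLDN3 (a tight junction claudin), and by CDX2, a homeobox gene of extraembryonic and caudal tissue. At least 2 of the 3 genes were detected in 27 cells, called ectoderm-marker cells, and 1 of 3 in 8 cells. None of the 3 was detected in 54 cells, called marker-negative cells, of which 35 had CDX2 detected and 19 did not. Among marker-negative cells the lowest CDX2 level counted as detected was 16.1 CPM and the highest counted as not detected was 6.18 CPM. Lateral plate mesoderm markers followed this split, with a median of 5 of 8 detected in marker-negative cells and 1 of 8 in ectoderm-marker cells. A wider list of 9 ectoderm genes, which holds those 3, followed it in part, with medians of 4 and 8 detected. Its keratins KRT7, KRT18 and KRT19 were found in over 80% of both states. The summed level of that list had a median of 8587 CPM in marker-negative and 8341 CPM in ectoderm-marker cells.

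Cells held 328645 to 2381723 gene reads (median 1464140) and 2394 to 9015 genes with a read. Median reads were 1545735 in ectoderm-marker cells, 1407465 in CDX2-detected and 1494383 in CDX2-undetected marker-negative cells. The title of each cell starts with X09 (58 cells) or X29 (31 cells), and the labels leave these prefixes unexplained. Some of the cell codes that follow, such as C06, occur under both prefixes. The ectoderm-marker cells were 14 X09 and 13 X29 cells, and the marker-negative cells 38 and 16, so the main comparisons between these states are also given within each prefix. A further check found 5 cells with 5 or more of 10 measured endothelial markers, 4 of them marker-negative and CDX2-undetected and 1 marker-negative and CDX2-detected.

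Where replicates would have given a test, a rule of size was used. A gene met it when its mean CPM, with 1 CPM added, differed at least 2-fold between the states, its share of detecting cells differed by at least 20 percentage points, and both had the same direction within X09 and within X29 cells. Genes detected in at least 10% of either state were measured by this rule. Shares carry exact Clopper-Pearson 95% intervals, which cover counting error only. Transcript lengths were not used, so levels of one gene are compared between cells and never with levels of another gene.

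Most cells of the somatopleure held troponin transcripts, and fewer held the other sarcomere genes. TNNC1 was detected in 95.5% of the 89 cells, TNNT2 in 82% and TNNI1 in 76.4%. MYL4 was detected in 41.6%, MYL2 in 39.3%, ACTC1 in 24.7% and ACTN2 in 2.25%. At least 4 of the 7 genes were found together in 77.8% of marker-negative cells and in 25.9% of ectoderm-marker cells. These shares were 86.8% and 7.14% within X09 cells but 56.3% and 46.2% within X29 cells. Of 6 genes measured by the size rule, TNNT2 and MYL2 were higher in marker-negative cells and 0 were lower, beside 5.25% and 5.54% of all measured genes. None of 6 measured met the rule between marker-negative cells with and without CDX2, beside 4% of all measured genes higher and 3.4% lower. ACTN2 was too rare to be measured. TNNC1 in both comparisons and TNNT2 in the second were found in over 80% of both states, so they could not meet the rule there.

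TNNT2 encodes cardiac troponin T, which anchors the troponin complex to tropomyosin. In ectoderm-marker cells its level ran from 0 through a median of 14.9 CPM to 517 CPM, and in the 8 cells with 1 marker from 0 through 187 to 327 CPM. In marker-negative cells it ran from 0 through 245 to 1759 CPM where CDX2 was detected, and from 0 through 298 to 1168 CPM where it was not. The ranges overlapped, but the median of ectoderm-marker cells lay just above the detection limit while both marker-negative medians were far above it. Mean TNNT2 was 347 ± 346 CPM (SD, n = 54 cells) against 54 ± 104 CPM (SD, n = 27), 6.33-fold higher in marker-negative cells. TNNT2 was detected in 94.4% of them (51 of 54, interval 84.6 to 98.8%) against 55.6% of ectoderm-marker cells (15 of 27, interval 35.3 to 74.5%). Within X09 cells the shares were 97.4% and 50%, and within X29 cells 87.5% and 61.5%.

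TNNC1 encodes the slow and cardiac troponin C, the calcium-binding subunit. Its level ran from 0 through 193 to 735 CPM in ectoderm-marker cells and from 0 through 324 to 593 CPM in cells with 1 marker. It ran from 124 through 788 to 1454 CPM in CDX2-detected marker-negative cells, where no cell lacked it, and from 0 through 471 to 1564 CPM in the CDX2-undetected ones. TNNC1 was thus found in nearly all cells of both layers, and the states differed in level rather than in detection. Its mean was 656 ± 363 CPM (SD, n = 54) in marker-negative and 188 ± 163 CPM (SD, n = 27) in ectoderm-marker cells, 3.48-fold apart, with shares of 98.1% and 92.6%. Within X09 cells the TNNC1 shares were 100% and 85.7%, and within X29 cells 93.8% and 100%, so their order turned around. A gene found in over 80% of both states cannot meet the size rule, so TNNC1 could not be called. The 2 ectoderm-marker cells without TNNC1 had no TNNC1 read at all, and the other 25 held 30.1 CPM or more.

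TNNI1 encodes slow skeletal troponin I, the inhibitory subunit that the embryonic heart also uses before it switches to the cardiac form. Its level ran from 0 through 25.1 to 88.3 CPM in ectoderm-marker cells and from 0 through 44.3 to 120 CPM in cells with 1 marker. In marker-negative cells it ran from 0 through 84.7 to 602 CPM with CDX2 and from 0 through 69.4 to 455 CPM without. Mean TNNI1 was 110 ± 117 CPM (SD, n = 54) in marker-negative against 27.2 ± 27.1 CPM (SD, n = 27) in ectoderm-marker cells, 3.92-fold higher. The shares were 83.3% and 63%, but the difference in share turned around between prefixes. In X09 cells TNNI1 was detected in 92.1% of marker-negative and 42.9% of ectoderm-marker cells, and in X29 cells in 62.5% and 84.6%, so it did not meet the rule. Its mean was higher in marker-negative cells of both prefixes, at 114 against 18.4 CPM in X09 and 98.7 against 36.6 CPM in X29 cells. At a stricter detection limit of 50 CPM TNNI1 met the rule as higher in marker-negative cells. In the RefSeq annotation of another chicken assembly, GRCg7b, TNNI1 and TNNT2 lie on the same chromosome with 2 listed genes between them.

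**Figure D1:**
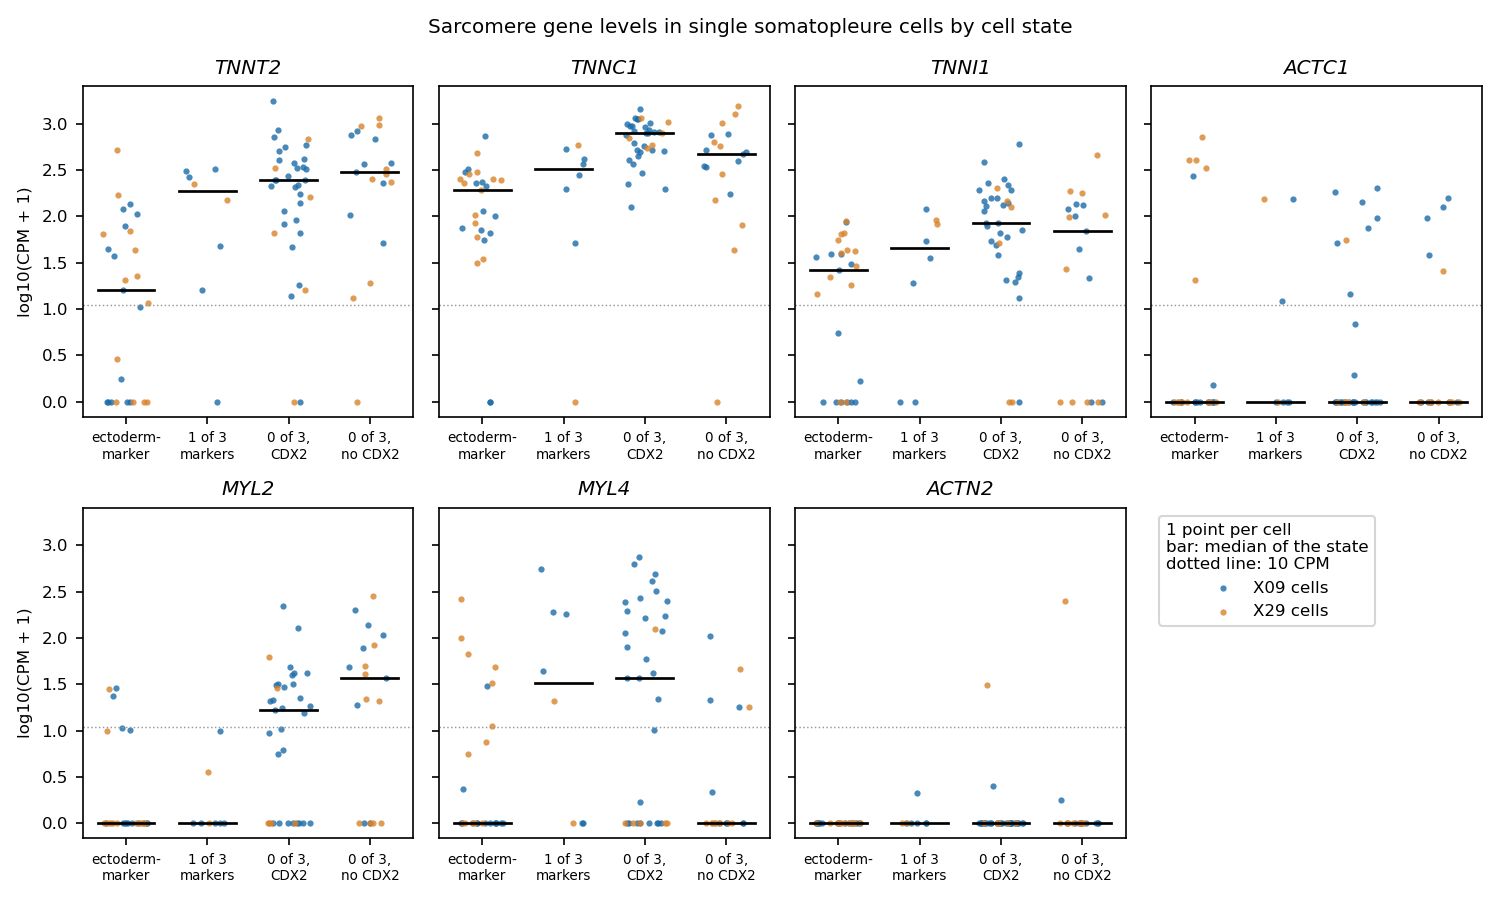
Level of each of the 7 sarcomere genes in every cell as log10(CPM + 1), by cell state, with 1 point per cell coloured by title prefix, a bar at the median of each state and a dotted line at the detection limit of 10 CPM. The TNNT2 medians rise from 14.9 CPM in ectoderm-marker cells to 245 and 298 CPM in marker-negative cells (labelled 0 of 3), while the 5 highest ACTC1 points are all ectoderm-marker cells and ACTN2 passes the limit in 2 cells.

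The plot of levels by state also shows the light chains and actin, in which many cells held no read. MYL2 encodes the regulatory myosin light chain of slow muscle and heart ventricle. It ran from 0 through 0 to 27.7 CPM in ectoderm-marker cells and never passed 8.99 CPM in the 8 cells with 1 marker. In marker-negative cells MYL2 ran from 0 through 15.7 to 220 CPM with CDX2 and from 0 through 36.3 to 282 CPM without. It was detected in 59.3% of marker-negative cells (32 of 54, interval 45 to 72.4%) and in 11.1% of ectoderm-marker cells (3 of 27, interval 2.35 to 29.2%). Mean MYL2 was 36.9 ± 58.1 CPM (SD, n = 54) against 3.91 ± 8.51 CPM (SD, n = 27), 7.71-fold higher in marker-negative cells. The prefixes had the same direction, with MYL2 detected in 63.2% against 14.3% of X09 cells and in 50% against 7.69% of X29 cells. At a stricter detection limit of 50 CPM the MYL2 shares were 16.7% and 0%, and MYL2 no longer met the rule.

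MYL4 encodes the essential light chain of atrial and embryonic muscle. It ran from 0 through 0 to 265 CPM in ectoderm-marker cells and from 0 through 31.3 to 554 CPM in cells with 1 marker. In marker-negative cells it ran from 0 through 36.3 to 741 CPM with CDX2 and from 0 through 0 to 104 CPM without. MYL4 therefore stood high in some cells of every state and was at 0 reads in 46 of all 89 cells. Its mean was 87.2 ± 162 CPM (SD, n = 54) in marker-negative and 20.7 ± 54.4 CPM (SD, n = 27) in ectoderm-marker cells, 4.06-fold higher, with shares of 46.3% and 25.9%. That log2 fold of 2.02 became 2.84 without the X29 ectoderm-marker cell at 265 CPM. The prefixes disagreed on MYL4. Among X09 cells it was detected in 57.9% of marker-negative and 7.14% of ectoderm-marker cells, and among X29 cells in 18.8% and 46.2%, where the mean was also lower in marker-negative cells (11.7 against 40.7 CPM).

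ACTC1 encodes cardiac alpha-actin, the main actin of the heart's thin filaments. It ran from 0 through 0 to 715 CPM in ectoderm-marker cells, to 154 CPM in cells with 1 marker, and in marker-negative cells to 202 CPM with CDX2 and 159 CPM without, all with a median of 0. The 5 cells with the most ACTC1 were all ectoderm-marker cells, 4 of them X29, at 715, 407, 403 and 331 CPM, and 1 of them X09, at 274 CPM. ACTC1 was the only one of the 6 measured genes with a higher mean in ectoderm-marker cells, 79.6 ± 181 CPM (SD, n = 27) against 23.3 ± 50.7 CPM (SD, n = 54), 3.31-fold higher there. The shares of detecting cells were close, 22.2% (6 of 27, interval 8.62 to 42.3%) and 24.1% (13 of 54, interval 13.5 to 37.6%), so ACTC1 did not meet the rule. Within X09 cells it was detected in 7.14% of ectoderm-marker and 28.9% of marker-negative cells, and within X29 cells in 38.5% and 12.5%.

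The alpha-actins are near-identical in protein sequence, and how any reads shared by several of their genes were counted is not given in the sources used here, so ACTC1 values are uncertain. Of the 35 cells with at least 5000 CPM of ACTA2, the smooth muscle alpha-actin, 23 had no ACTC1 read and 11 had ACTC1 detected. ACTA1, the skeletal alpha-actin, was detected in 63.6% of the 22 cells with ACTC1 and in 37.3% of the 67 without. The part of shared reads in ACTC1 was not tested.

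ACTN2 encodes the alpha-actinin of the muscle Z-disc. It was detected in 2 of 89 cells and had no read in 84, including all 27 ectoderm-marker cells, where a count of 0 allows a share of up to 11.1%, taken as 3 counts of the total. Both cells were X29 and marker-negative. The CDX2-detected one held 30.2 CPM of ACTN2 together with 678 CPM of TNNT2 and 1148 CPM of TNNC1. The CDX2-undetected one held 247 CPM of ACTN2 and not a read of the other 6 genes, and it was a shallow cell of 453090 reads with 8 endothelial markers and 26.3% of its reads from mitochondrial genes. ACTN2 was not measured by the size rule in this comparison, since it was detected in under 10% of either state.

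Across all measured genes, 5.25% were higher and 5.54% lower in marker-negative than in ectoderm-marker cells by the size rule (515 and 543 of 9807). Of the 6 measured sarcomere genes 2 were higher and 0 lower. All 6 differed at least 2-fold in mean CPM, 5 of them higher in marker-negative cells, where 29.6% of all measured genes differed that much in either direction. The median log2 fold was 1.997 for the 6 genes and 0.04 for all genes. These figures are set side by side only, since the genes had been picked with their values in these cells known.

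Between marker-negative cells with and without CDX2, the light chains MYL4 and MYL2 averaged apart in opposite directions, and none of the 6 measured genes met the rule. By the rule 4% of all measured genes were higher and 3.4% lower in cells with CDX2 (397 and 337 of 9918), and of the 6 measured sarcomere genes 0 were higher and 0 lower. Mean MYL4 was 129 ± 189 CPM (SD, n = 35) with CDX2 and 10.8 ± 25.4 CPM (SD, n = 19) without, 11-fold higher, with shares of 57.1% and 26.3%. All but 1 of the 20 MYL4-positive cells with CDX2 were X09 cells, and in X29 cells the MYL4 shares were 16.7% with CDX2 and 20% without, so MYL4 missed the rule. Leaving out either of 2 X29 cells without CDX2 made it meet the rule, and leaving out the CDX2-undetected X09 cell at 104 CPM moved its log2 fold from 3.46 to 4.29.

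Mean MYL2 leaned the other way, at 25.1 ± 42.2 CPM with CDX2 and 58.5 ± 76.3 CPM without, 2.28-fold higher without, with shares of 54.3% and 68.4%. Without the 5 cells with endothelial markers MYL2 met the rule as lower with CDX2, and among the 15 CDX2-undetected cells then left it was detected in 80% at a mean of 72.7 CPM. TNNT2 averaged 309 ± 335 CPM with CDX2 and 418 ± 365 CPM without, and TNNC1 728 ± 313 and 522 ± 416 CPM. TNNI1 was detected in 91.4% of cells with CDX2 and 68.4% of those without, at means of 121 and 87.9 CPM, and mean ACTC1 was 23.4 and 23.3 CPM. For each of the 6 measured genes the difference in mean was smaller than the larger of its SDs over cells. The same held for TNNT2 and MYL2 between marker-negative and ectoderm-marker cells, where both met the rule. An SD over cells gives their spread and is not the error of a mean.

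The 5 cells with endothelial markers held a median of 2 of the 7 genes, against 4 over all marker-negative cells. TNNT2 was detected in 3 of them, TNNC1 in 4, TNNI1 in 2, and ACTC1 and MYL4 in none. All 15 CDX2-undetected cells without those markers held both TNNT2, at a mean of 502 ± 358 CPM (SD), and TNNC1.

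Co-detection counts the 7 genes present in the same cell. Ectoderm-marker cells held a median of 2 of the 7, marker-negative cells a median of 4, and cells with 1 marker a median of 4. At least 4 were found in 77.8% of marker-negative cells (42 of 54, interval 64.4 to 88%) and in 25.9% of ectoderm-marker cells (7 of 27, interval 11.1 to 46.3%). With CDX2 the share was 80% and without CDX2 73.7%, but within each prefix the order turned around. It was 86.2% with CDX2 and 88.9% without in X09 cells, and 50% and 60% in X29 cells. Marker-negative cells with CDX2 were 29 X09 and 6 X29 cells, and those without were 9 and 10. In X09 cells the shares were 86.8% of marker-negative and 7.14% of ectoderm-marker cells, and in X29 cells 56.3% and 46.2%, so the states lay close together in X29 cells.

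No cell held all 7 genes, 3 cells held 6 and 1 cell, an X09 ectoderm-marker cell, held none. The 3 cells with 6 genes were X09 marker-negative cells, 2 of them with CDX2, and each lacked only ACTN2. They held 218 to 371 CPM of TNNT2, 495 to 749 CPM of TNNC1 and 18.4 to 101 CPM of TNNI1.

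The number of the 7 genes in a cell had a Spearman rho of 0.46 with the number of genes with a read and of 0.06 with gene reads, over 89 cells of 1 pool. The 5 cells with under 3000 genes with a read held 1 or 2 of the 7. The part of cell quality in co-detection was not tested, and the median number of genes with a read was 5610 in marker-negative and 5476 in ectoderm-marker cells.

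**Figure D2:**
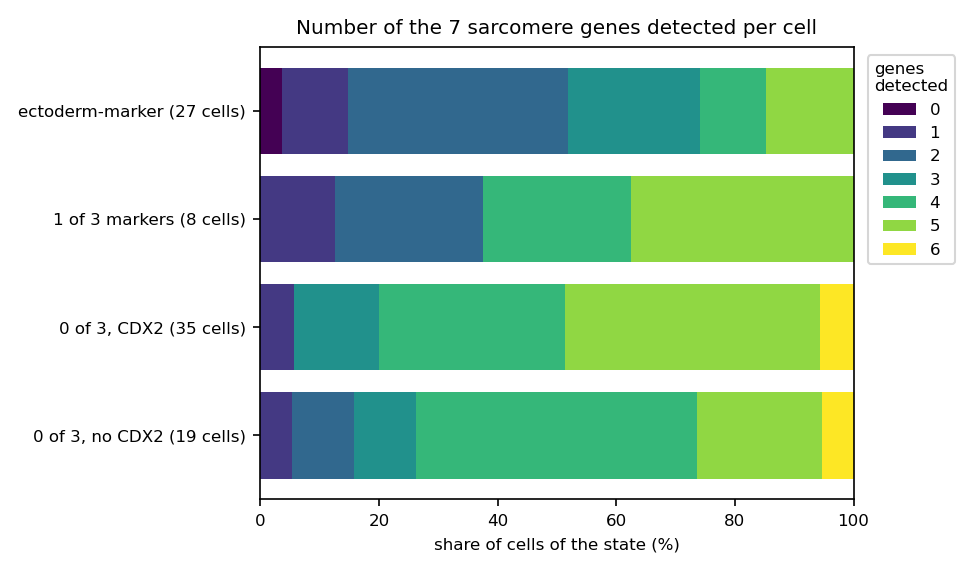
Share of the cells of each state (%, x axis) that held 0 to 6 of the 7 sarcomere genes, as stacked bars, with the number of cells beside each state. With both title prefixes pooled, bars for 4 or more genes take 80% and 73.7% of marker-negative cells with and without CDX2 (labelled 0 of 3) and 25.9% of ectoderm-marker cells.

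The bars of genes per cell give the number but not the combination. A working troponin complex needs all of its T, C and I subunits, and TNNT2, TNNC1 and TNNI1 were detected together in 83.3% of marker-negative cells (45 of 54, interval 70.7 to 92.1%) and in 33.3% of ectoderm-marker cells (9 of 27, interval 16.5 to 54%). The share was 91.4% in marker-negative cells with CDX2 and 68.4% in those without. Within X09 cells these 2 shares were 96.6% and 77.8%, and within X29 cells 66.7% and 60%. In X09 cells the trio was found in 92.1% of marker-negative and 21.4% of ectoderm-marker cells, and in X29 cells in 62.5% and 46.2%. At a detection limit of 50 CPM the troponin trio was found in 59.3% of marker-negative and 7.41% of ectoderm-marker cells. Counted separately at 10 CPM, TNNT2, TNNC1 and TNNI1 were detected in 94.4%, 98.1% and 83.3% of marker-negative cells. In ectoderm-marker cells those shares were 55.6%, 92.6% and 63%. Whether the 3 genes are used together as a complex was not tested.

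In marker-negative cells TNNT2 was found in 51 of 54, so nearly any gene shared cells with it. The 3 cells without TNNT2 were 2 cells with endothelial markers and 1 cell of 2394 genes with a read and 41.4% mitochondrial reads. All 45 cells with TNNI1 also held TNNT2, and 6 of the 9 cells without TNNI1 did. All 32 cells with MYL2, all 25 with MYL4 and all 13 with ACTC1 held TNNT2. Every one of the 13 cells with ACTC1 also held TNNI1, against 32 of the 41 without ACTC1. MYL4 was found in 15 of 32 cells with MYL2 and in 10 of 22 without.

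Among ectoderm-marker cells, 55.6% of which held TNNT2, TNNI1 was detected in 9 of their 15 cells with TNNT2 and in 8 of the 12 without. ACTC1 went with TNNI1 in all 6 of its cells, against 11 of the 21 without ACTC1, and with MYL4 in 4 of 6 against 3 of 21. MYL2 and MYL4 were never detected at 10 CPM in the same ectoderm-marker cell, with only 3 and 7 cells to meet in. Reads of both did occur together below that limit. An X29 ectoderm-marker cell held 27.5 CPM of MYL2 and 6.47 CPM of MYL4, and another held 9.03 and 97.9 CPM. Over all 89 cells, each of the 22 cells with ACTC1 held both TNNC1 and TNNI1.

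Spearman's rho between TNNT2 and TNNC1 was 0.62 over all 89 cells, 0.48 within the 54 marker-negative cells and 0.15 within the 27 ectoderm-marker cells. For TNNT2 and TNNI1 the values were 0.51, 0.46 and -0.09. All cells share 1 pool and their levels share each cell's read total, so these values describe the cells only.

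**Figure D3:**
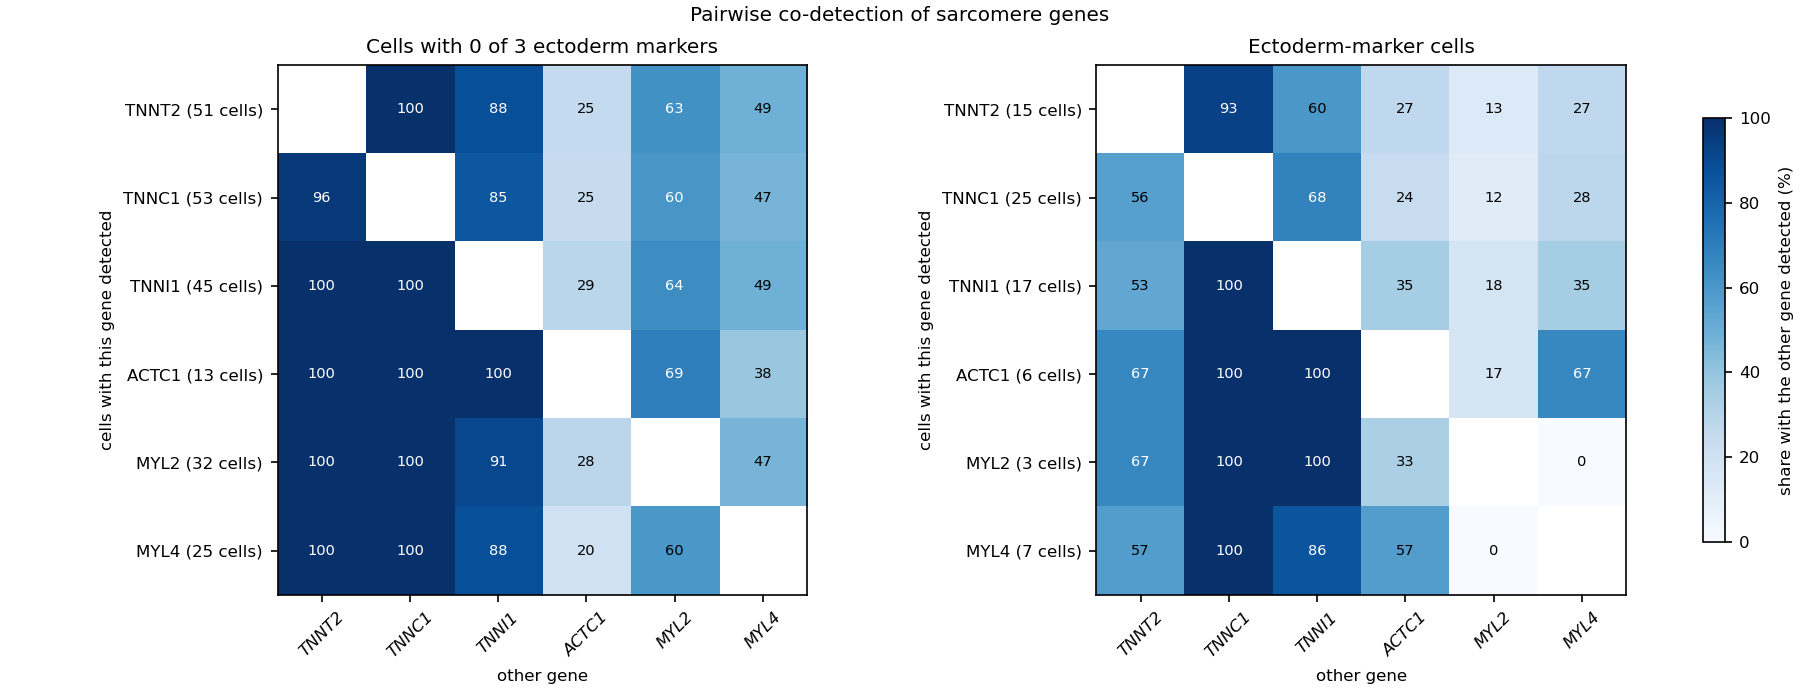
Pairwise co-detection within marker-negative cells (left) and ectoderm-marker cells (right), where each square gives the share (%) of the cells with the row gene that also held the column gene, and rows carry their number of cells. The TNNT2 column reads 100 for TNNI1, ACTC1, MYL2 and MYL4 cells on the left and 53 to 67 for the same genes on the right.

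The ectoderm-marker cells with sarcomere transcripts were looked at for mesoderm genes. TNNC1 was detected in 92.6% of them and TNNT2 in 55.6%, while PRRX1, a limb and lateral plate mesoderm homeobox gene, was detected in 18.5%, CDH11, a mesenchymal cadherin, in 33.3% and the collagen gene COL1A2 in 0 of 27, which allows up to 11.1% by the same limit. Mesoderm genes that are abundant in marker-negative cells were scarce there, ACTA2 averaging 290 ± 781 CPM against 5875 CPM in marker-negative cells and CDH11 54.4 ± 109 CPM against 764 CPM. PRRX1 was detected in 3 of the 15 ectoderm-marker cells with TNNT2 and in 2 of the 12 without, and CDH11 in 5 of 15 and 4 of 12.

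In all, 3 ectoderm-marker cells had 3 or more of 8 mesoderm markers, among them the cell with the highest TNNT2 of that state, at 517 CPM. Without those 3, TNNT2 was detected in 50% of the other 24 at a mean of 33.4 ± 47.5 CPM (SD), and TNNC1 in 91.7% at 179 ± 158 CPM. TNNI1 was then at 62.5%, ACTC1 and MYL4 at 20.8% each, MYL2 at 12.5%, and 4 or more of the 7 genes were found in 20.8% of cells. Whether RNA of other cells entered these captures was not tested.

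Inside the ectoderm-marker state, counts of a few other genes were set beside TNNT2 and ACTC1, chosen after their values were seen. NKX2-5, a homeobox gene of heart precursors, was detected in 8 of 15 cells with TNNT2 and 3 of 12 without, and ISL1, a LIM-homeobox gene of heart precursors and other tissues, in 11 of 15 and 5 of 12. GATA5 was detected in 6 of 6 cells with ACTC1 and 8 of 21 without, and ACTA2 in 5 of 6 and 6 of 21. Of the 6 cells with ACTC1, 5 were X29, and the prefix moved with these genes too. In X29 against X09 ectoderm-marker cells NKX2-5 was detected in 61.5% and 21.4%, ISL1 in 84.6% and 35.7%, GATA5 in 76.9% and 28.6% and ACTA2 in 53.8% and 28.6%, and the part of the prefix in these counts was not tested. Other regulators of cardiac muscle varied widely there. In the same order, MEF2C, TBX20 and MYOCD were each detected in 0% and 0%, and TBX5 in 7.69% and 0%. GATA4 and GATA6 were each detected in 7.69% and 7.14%, and HAND1 in 84.6% and 92.9%. CDX2 was detected in 7 ectoderm-marker cells, of which 2 held TNNT2 and 6 held TNNI1, against 13 and 11 of the 20 cells without CDX2.

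The title prefix went with ACTC1 and MYL4 within the ectoderm-marker state. ACTC1 was 7.06-fold and MYL4 13.1-fold higher on average in X29 than in X09 cells, and both met the rule of size and share, as did 4.69% of all measured genes in that direction (442 of 9421, against 7.15% lower and 34.1% with a 2-fold difference either way). TNNI1 was detected in 84.6% of X29 and 42.9% of X09 ectoderm-marker cells, a 1.93-fold difference in mean. Within marker-negative cells MYL4 was instead lower in X29 cells, 11.7 against 119 CPM, as 6.42% of measured genes were, with 1.25% higher. What the prefix stands for, and its part in these differences, was not tested. TNNT2 and MYL2 had the same order of states within both prefixes.

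**Figure D4:**
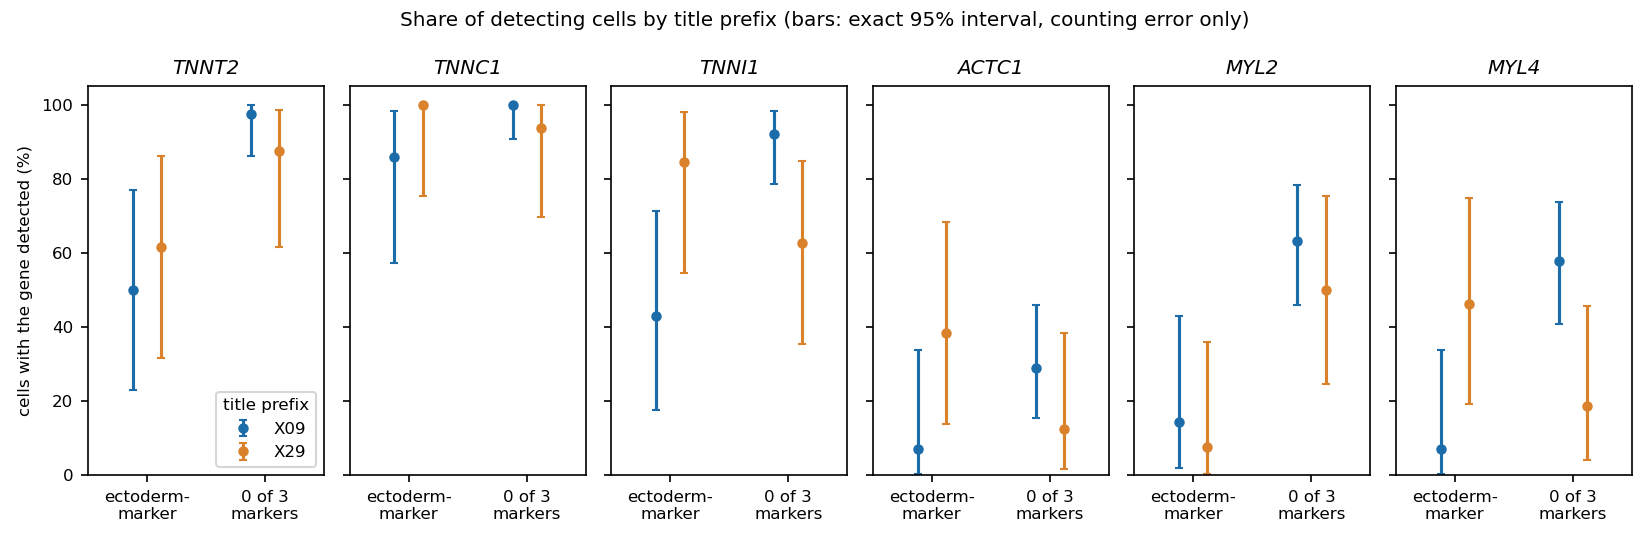
Share of cells with each gene detected (%, y axis) in ectoderm-marker and marker-negative cells (labelled 0 of 3), separately for X09 and X29 cells, with exact 95% intervals as bars. TNNT2 and MYL2 are higher in marker-negative cells of both prefixes, while TNNI1, ACTC1 and MYL4 point opposite ways in X09 and X29 cells.

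The cells were also looked at for 8 other cardiomyocyte markers that had a row, MYH7, MYH15, MYL3, NKX2-5, TBX5, MYOCD, RYR2 and NPPA. A median of 1 of the 8 was detected per cell in each state, and at most 4 in any cell. Their summed level had a median of 54.5 CPM and ran from 0 to 556 CPM. MYH7, a slow and cardiac myosin heavy chain, was detected in 12.4% of the 89 cells, MYH15, the ventricular heavy chain of chick, in 15.7%, and the cardiac calcium release channel RYR2 in 10.1%. MYOCD, the cardiac and smooth muscle coactivator myocardin, was detected in 2.25% of cells and NKX2-5 in 15.7%, most of these being ectoderm-marker cells. NPPA was detected in 25.8%, the light chain MYL3 in 24.7% and the T-box gene TBX5 in 15.7% of cells. In all, 7 cells held 3 or more of the 8 markers, 5 of them marker-negative. No cell type name was given from these markers, and MYL7, TNNI3 and TTN were not analysed here.

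Other muscle genes were taken from lists by function. Of the other thin filament genes 4 were measured and 1 was higher in marker-negative cells, TMOD1, which caps thin filaments, at 76.4 ± 103 against 5.89 ± 12.1 CPM and in 55.6% against 18.5% of cells. TPM1, a tropomyosin used in muscle and other cells alike, was detected in 98.1% and 100% of cells at 1158 and 1622 CPM, and ACTA1 averaged 64.9 and 168 CPM. Of 5 thick filament genes MYOM1, the M-band protein myomesin, was higher, in 25.9% against 3.70% of cells. Among those not meeting the rule, MYH7 was detected in 9.26% and 18.5% of cells, MYH15 in 14.8% and 22.2%, and the light chain MYL3 in 20.4% and 29.6%.

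Of 5 Z-disc genes FHL2 was higher, in 37.0% against 3.70% of cells, and NEXN and PDLIM5 were not called at 46.3% against 51.9% and at 40.7% in both. Of 4 genes of sarcomere assembly and splicing 2 were higher, CSRP1, a LIM protein of smooth muscle, in 92.6% against 48.1% and RBM24, a splicing regulator of heart and skeletal muscle, in 48.1% against 7.41% of cells. SMYD1, a methyltransferase needed for myofibril assembly, was detected in 9.26% and 11.1%. Of 4 calcium and hormone genes CACNA1C, a voltage-gated calcium channel, was higher in 35.2% against 3.70% of cells and NPPA, the atrial natriuretic peptide, in 37.0% against 11.1%. The calcium pump ATP2A2 was at 83.3% and 77.8%.

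Of 13 measured regulators of cardiac muscle 3 were higher and 2 lower in marker-negative cells. GATA6 was detected in 77.8% against 7.41% of cells, HAND2 in 83.3% against 37.0% and MEF2A in 53.7% against 33.3%. NKX2-5 went the other way, at 3.70% against 40.7%, and so did ISL1, at 22.2% against 59.3%. Among skeletal muscle regulators MEOX1, a somite homeobox gene, was higher at 20.4% against 0%, and EYA1, a transcriptional coactivator that also works in sensory placodes, was lower at 3.70% against 40.7%. MYF5, a skeletal muscle determination gene, was detected in 4 of 89 cells.

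Smooth muscle genes had 4 of 8 measured members higher and 0 lower. Mean CPM was higher in marker-negative cells for 5 of the 8, while TAGLN, MYLK and SMTN averaged higher in ectoderm-marker cells. ACTA2 averaged 5875 ± 3493 against 290 ± 781 CPM, the actin-binding CALD1 356 ± 219 against 45.4 ± 103 CPM, and LMOD1, a smooth muscle leiomodin, was detected in 40.7% against 3.70% of cells. MYL9 and MYLK were not called, at 98.1% against 100% and 33.3% against 29.6%. None of the 12 measured non-muscle relatives of the 7 genes met the rule, and 10 of them were found in over 80% of both states and so could not meet it, ACTB and CALM2 among them at 100%. Over the 9 lists 15 of 59 measured genes were higher (25.4%) and 4 lower (6.78%), beside 5.25% and 5.54% of all measured genes. The lists were chosen with results of these cells known.

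Between marker-negative cells with and without CDX2, 7 of 64 measured genes of the lists were higher (10.9%) and 9 lower (14.1%) with CDX2, beside 4% and 3.4% of all measured genes. Higher ones included TMOD1 (74.3% against 21.1%), LMOD1 (62.9% against 0%), MYL3 (28.6% against 5.26%), TAGLN, an early smooth muscle gene (48.6% against 26.3%), and HAND1 (97.1% against 21.1%). Lower ones included MYH15 (5.71% against 31.6%), RYR2 (2.86% against 31.6%), the muscle intermediate filament gene DES (2.86% against 31.6%), XIRP1 (0% against 21.1%), RBM24 (40% against 63.2%), MEF2C (2.86% against 26.3%) and ISL1 (5.71% against 52.6%). Endothelial markers moved with that contrast, 5 of 10 measured being lower with CDX2, and their part in these differences was not tested.

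**Figure D5:**
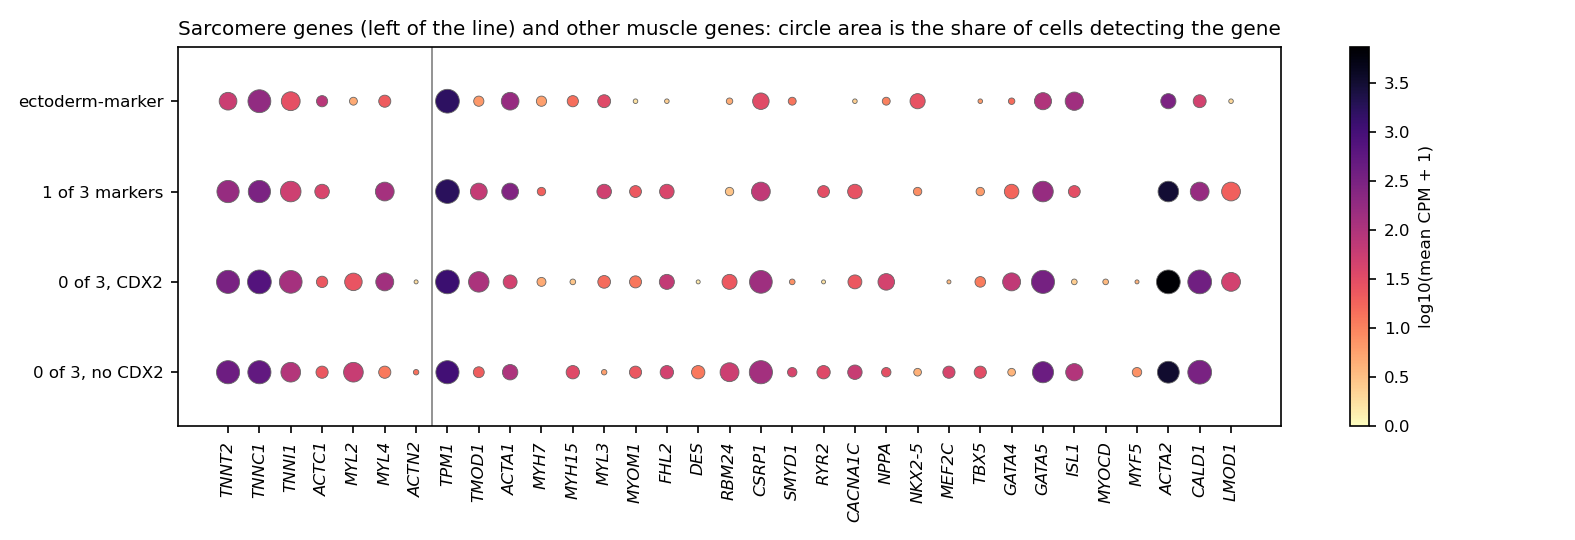
The 7 sarcomere genes (left of the line) and 26 other muscle genes in the 4 cell states, with circle area for the share of cells detecting the gene and colour for log10(mean CPM + 1). TNNC1 (87.5 to 100% of cells) and TPM1 (94.7 to 100%) have large circles in every row, MYOCD passes 5.71% in no row, and MYH15 and RYR2 reach 31.6% in CDX2-undetected marker-negative cells.

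The circles by state also show MYL4 and LMOD1 in the same rows. Within marker-negative cells LMOD1 was detected in 72% of the 25 cells with MYL4 and 13.8% of the 29 without, and TMOD1 in 76% and 37.9%. Among CDX2-detected cells alone LMOD1 was found in 90% of the 20 with MYL4 and 26.7% of the 15 without. These genes also went with the title prefix in marker-negative cells. LMOD1 was detected in 52.6% of X09 and 12.5% of X29 cells, TMOD1 in 65.8% and 31.3%, and MYL4 in 57.9% and 18.8%. The part of the prefix in these pairings was not tested. LMOD1 was also the gene whose level was most like that of MYL4 over all 89 cells, with a Spearman rho of 0.55 among 6423 genes ranked, followed by OPRM1 (0.52), CDH11 (0.51), RAMP3 (0.48) and PHC1 (0.48).

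The nearest genes of the other sarcomere genes over the 89 cells overlapped in part, LSP1 being among those of TNNT2, TNNI1 and MYL2. For TNNT2 these were ALDH1A2, the retinoic acid synthesis enzyme of lateral plate mesoderm (rho 0.73), SPCS3 (0.68), the signalling ligand BMP5 (0.66), PRRX1 (0.65) and LSP1 (0.64). For TNNC1 they were the growth factor PTN (0.74), BMP5 (0.74), the tropomyosin TPM4 (0.73), MGST3 (0.69) and ACTA2 (0.68). For TNNI1 they were ACTA2 (0.58), HAND2 (0.58), MYRF (0.53), COL1A1 (0.52) and LSP1 (0.51), and for MYL2 ITGA9 (0.57), LSP1 (0.53), GATA5 (0.53), CADM1 (0.53) and SPCS3 (0.52). For ACTC1 the nearest were ZFAND3 (0.45), FGD3 (0.44), ZNF839 (0.43), CTNND2 (0.42) and FLRT3 (0.42). Within the 35 CDX2-detected cells alone 2 of these 30 pairings with the 5 most alike genes were found again, LMOD1 with MYL4 and LSP1 with TNNT2.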

How the data were processed

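Single cells of the chick amniogenic somatopleure were captured on the Fluidigm C1 system and turned into cDNA (SMARTer v4) and Nextera XT libraries, per the labels' protocols. The authors deposited unnormalised read counts, 1 column for each of 89 cells. Alignment to GRCg6a used HISAT2 2.1.0 and counting used featureCounts, per the submitters' processing notes, with settings not given in the sources used here. Reads carried no molecular identifiers. Intervals were computed on numbers of detecting cells and cover counting error only. The table's 3 spike-in rows, 5.99% of all reads, were left out of every total. Of 13823 gene rows 3371 had only an Ensembl identifier (5.93% of gene reads), and none of these matched the RefSeq gene table, so genes of the lists without a symbol row were not analysed here. The labels name no separate animals or replicates.

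From the counts, CPM per cell, detection (at least 10 CPM and 1 read), the 4 cell states and the size rule (a fold of 2 with 1 CPM added, 20 percentage points, the same direction in both title prefixes) were computed with Python 3.11.15, NumPy 2.4.6, pandas 2.3.3 and SciPy 1.17.1, and plots drawn with Matplotlib 3.10.9. The 7 genes and all lists were chosen with earlier results of these data known. Named were all 7 genes and, from each list, at most 3 genes per direction meeting the size rule with the largest difference in share, at most 2 others with the highest mean, and a few set genes, chiefly MYH7, MYH15, MYL3, RYR2, NPPA, NKX2-5, MEF2C, TBX5, ISL1, MYOCD and MYF5. The 5 genes most alike by Spearman's rho were taken among genes detected in at least 20% of cells. PRRX1, CDH11 and COL1A2 are markers of mesoderm from the marker lists. The genes described inside the ectoderm-marker state or with MYL4 were chosen after their values were seen. Not every gene picked by the naming rule is reported here. Doublets were not called, and whether any capture held more than 1 cell was not tested. The cells with the most genes with a read, 9015 and 8850, both had 1 ectoderm marker and held 5 and 6 mesoderm markers. They gave the highest MYL4 (554 CPM) and the highest ACTC1 (154 CPM) among cells with 1 marker. Alternatives changed the detection limit, scaling, depth (thinning every cell to 300000 reads), states, prefixes, cells kept, fold and pseudocount.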

Additional observations from a re-analysis of the deposited data

How the results depend on the processing

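TNNT2 and MYL2 met the size rule as higher in marker-negative cells under every alternative run and on leaving out any 1 cell, except MYL2 at a detection limit of 50 CPM, and neither changed direction there. MYL4, which did not meet the rule over all cells, met it as higher in marker-negative cells within X09 cells alone and as lower within X29 cells alone. TNNI1, not called above, met it as higher in marker-negative cells at 50 CPM, in X09 cells alone and without the prefix demand. Below, contrast A is marker-negative against ectoderm-marker cells and contrast B is CDX2-detected against CDX2-undetected marker-negative cells. At 50 CPM, genes higher were 303 in A and 256 in B, sarcomere genes in B were 1 higher and 1 lower, and listed genes lower in B were 2. The share with 4 or more sarcomere genes was then 38.9% of marker-negative cells (42.9% with CDX2, 31.6% without) and 3.70% of ectoderm-marker cells, and the troponin trio was in 59.3%, 65.7% (with CDX2) and 7.41% (ectoderm-marker). Mean ACTC1 had the opposite order in X09 cells alone (31.1 against 19.6 CPM in A). There 4 sarcomere genes were higher in A and 1 in B, all genes were 846 higher in A and 736 higher and 616 lower in B, the trio was in 92.1% of marker-negative cells and 4 or more genes in 7.14% of ectoderm-marker cells. In X29 cells alone 2 sarcomere genes were lower in A, MYL4 (mean 11.7 against 40.7 CPM, the opposite of its order over all cells) and ACTC1 (4.98 against 144 CPM), and 1 in B, MYL2, listed genes in A were 7 higher and 8 lower, and all genes were 977 lower in A and 883 higher and 1754 lower in B. There 4 or more genes were found in 56.3% of marker-negative cells (50% with CDX2) and the trio in 62.5% (66.7% with CDX2). Without endothelial-marker cells 1 sarcomere gene, MYL2, was lower in B, where all genes lower stayed within 1.5 times their main count of 337. With CDX2 called at 50 CPM, listed genes in B were 2 higher and 3 lower, all genes 191 lower, and the trio was in 100% of CDX2 cells. Without the demand on prefixes 4 sarcomere genes were higher in A and 1 in B. All genes higher then stayed within 1.5 times their main counts of 515 in A and 397 in B. At a fold of 4, all genes were 261 higher and 343 lower in A and 175 higher and 192 lower in B, with 4 listed genes higher in B. The cause of these moves was not tested. Leaving out 1 cell at a time gave 0 to 1 sarcomere genes higher in B, MYL4 being the one, 2 higher in A throughout, and 11 to 16 listed genes higher in A. All genes higher then ranged from 472 to 528 in A and from 327 to 480 in B. No cell was under the thinning depth. No paired analysis was possible because all cells come from 1 pool and the result comes from no test. Reads per cell limit rare genes such as ACTN2, 1 read being worth 0.42 to 3.04 CPM.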
